A study of Mus musculus with 3 samples.

Results

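Pericytes of the aged mouse hippocampus were studied as 163 cell barcodes, chosen from 11015 barcodes by the genes they held. A barcode was taken as a pericyte when at least 3 of the 6 genes Kcnj8, Abcc9, Vtn, Higd1b, Ndufa4l2 and Atp13a5 had a UMI (unique molecular identifier, 1 counted RNA molecule). It could hold at most 1 of the smooth muscle genes Acta2, Myh11 and Cnn1, and at most 1 of Pecam1, Cdh5, Cx3cr1, Slc1a2 and Dcn, which mark endothelial cells, microglia, astrocytes and fibroblasts. The 11015 barcodes had at least 1000 UMIs and at most 20% mitochondrial UMIs, and 14759 barcodes were deposited in all. They were set against 190 smooth muscle cells, with 2 or more of the 3 smooth muscle genes and at most 1 of the 5 genes of other classes. The second neighbour was 4642 endothelial cells, with 3 or more of Pecam1, Cdh5, Cldn5, Flt1, Tie1 and Egfl7, at most 1 pericyte gene of the rule, at most 1 smooth muscle gene and at most 1 of Cx3cr1, Slc1a2 and Dcn.

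The study profiled hippocampal cells of wild-type C57BL/6 mice in 3 libraries made with the 10x Chromium 3′ v3.1 kit, and all 3 libraries carry the age label 2-year-old. Tissue had been digested with papain and cleared of myelin with beads, and no treatment or mutant was part of the design. The labels tie no library to an animal, so the p-values below measure the spread between these 3 libraries, which may be technical. The title of replicate 3 gives another age wording than its label, so no age comparison was made.

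Pericytes sit in the wall of capillaries, wrapped in the basement membrane that they share with the endothelium. Endothelial Pdgfb, acting on the receptor Pdgfrb, recruits them, and they are needed for a tight blood-brain barrier. Together with smooth muscle cells, which line arterioles, they make up the mural cells. Pericytes of the brain carry an ATP-sensitive potassium channel built from Kcnj8 and Abcc9, and little of the contractile apparatus that marks arteriolar smooth muscle.

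Pericytes made up 1.24% of the 5718 kept barcodes of replicate 1 (71 cells, 95% exact Clopper-Pearson interval 0.971 to 1.56%). They made up 2.37% of the 802 barcodes of replicate 2 (19 cells, 1.43 to 3.67%) and 1.62% of the 4495 barcodes of replicate 3 (73 cells, 1.28 to 2.04%). The intervals, here and below, cover counting error only. Per 100 endothelial cells there were 2.94, 4.27 and 4.09 pericytes in replicates 1, 2 and 3, a mean of 3.77 ± 0.722 (SD, n = 3). The summed pericytes held 254892, 117323 and 221225 UMIs. A median pericyte held 2833 UMIs, against 7889.5 in smooth muscle cells and 6890 in endothelial cells, so that a pericyte was counted less deeply than its neighbours. No pericyte barcode occurred in another library, and Scrublet called 3 of the 163 pericytes doublets.

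Since the rule chose the cells, the levels of its genes are a description. Levels are given as CPM (counts per 1000000), the UMIs of a gene scaled to the UMIs of the class in a library, in the order of replicates 1, 2 and 3. Vtn, which encodes the matrix protein vitronectin, had 13598, 16152 and 18248 CPM in pericytes and was found in every pericyte. Atp13a5, a P5-type ATPase, had 898, 1534 and 1483 CPM, and Ndufa4l2, a mitochondrial protein related to the respiratory subunit Ndufa4, had 1342, 946 and 1379 CPM. Higd1b, of the hypoxia-inducible domain family, had 843, 597 and 1008 CPM. The potassium channel pore Kcnj8 had 773, 460.3 and 696 CPM and its sulfonylurea receptor subunit Abcc9 had 529.6, 588 and 615 CPM. Of the 163 cells, 73 held all 6 genes, 38 held 5, 25 held 4 and 27 held 3. Cells at the limit of the rule were weaker in Rgs5, a mural gene outside it: Rgs5 had 1565 CPM in the 27 cells with 3 markers, against 7686 CPM in the 73 cells with 6 and 603 CPM in 32 barcodes with 2 markers that met the other limits. The 27 cells with 3 markers had a median of 1584 UMIs and the 73 cells with 6 had 3507. Of the other-class genes, 96 of the 163 pericytes held 1.

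The promoters of 5 genes are shown. Kcnj8 and Abcc9 are genes of the rule that chose the cells, so their levels are no result. The mural genes Rgs5 and Notch3, and Pln, which was at 0 in pericytes, differed from a neighbour below. Each promoter runs from 250 bases before to 50 bases after the start site in RefSeq (GRCm38.p6), and 22 of 28 pericyte genes looked up had an entry. Capitals mark TGGGAA, the core of the site of RBPJ, the DNA-binding partner of Notch.
Rgs5 (chr1:169655251-169655550, plus strand): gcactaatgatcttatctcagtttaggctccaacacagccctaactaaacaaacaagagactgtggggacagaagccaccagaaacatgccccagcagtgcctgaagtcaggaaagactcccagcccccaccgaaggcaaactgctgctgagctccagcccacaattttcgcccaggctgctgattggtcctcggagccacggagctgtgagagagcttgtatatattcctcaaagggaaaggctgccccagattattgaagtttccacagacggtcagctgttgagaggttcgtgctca
Notch3 (chr17:32166841-32167140, minus strand): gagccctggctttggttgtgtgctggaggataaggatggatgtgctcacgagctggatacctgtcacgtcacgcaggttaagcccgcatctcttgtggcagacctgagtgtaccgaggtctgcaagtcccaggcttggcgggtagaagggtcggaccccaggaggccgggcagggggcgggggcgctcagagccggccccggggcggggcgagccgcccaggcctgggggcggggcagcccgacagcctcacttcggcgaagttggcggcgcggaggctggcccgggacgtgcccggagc
Kcnj8 (chr6:142571565-142571864, minus strand): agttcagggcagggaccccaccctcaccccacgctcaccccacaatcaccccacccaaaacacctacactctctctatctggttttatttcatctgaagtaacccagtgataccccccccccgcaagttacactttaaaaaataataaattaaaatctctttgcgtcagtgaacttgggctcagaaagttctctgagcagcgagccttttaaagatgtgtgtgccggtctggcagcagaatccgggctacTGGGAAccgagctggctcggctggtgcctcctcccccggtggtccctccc
Abcc9 (chr6:142702225-142702524, minus strand): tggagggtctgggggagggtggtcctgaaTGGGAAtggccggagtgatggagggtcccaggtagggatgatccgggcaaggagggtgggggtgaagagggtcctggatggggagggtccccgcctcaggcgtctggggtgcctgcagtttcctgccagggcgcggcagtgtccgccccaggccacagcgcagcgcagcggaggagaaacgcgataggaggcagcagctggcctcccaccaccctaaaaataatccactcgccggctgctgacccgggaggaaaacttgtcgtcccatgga
Pln (chr10:53337436-53337735, plus strand): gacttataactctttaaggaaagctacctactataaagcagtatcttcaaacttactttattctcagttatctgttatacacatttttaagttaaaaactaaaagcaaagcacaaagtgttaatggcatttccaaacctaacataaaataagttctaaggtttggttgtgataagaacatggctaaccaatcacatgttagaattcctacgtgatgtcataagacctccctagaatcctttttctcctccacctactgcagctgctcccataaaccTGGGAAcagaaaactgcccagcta
The letters TGGGAA, searched on both strands, were found in the promoters of Kcnj8, Abcc9 and Pln. They occur in 25.6% of the 32851 promoters of this length that were searched, a set that leaves out a chromosome. The forkhead letters TGTTTAC (3.65% of that set) were in none of the 5. Nor was the CArG box, the site of serum response factor, searched as CC and GG around a run of A or T (1.63%). A match describes these letters only.

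The label was checked with 22 pericyte genes that the rule did not use. Their summed level was 1.43%, 1.56% and 1.66% of the UMIs of pericytes, against 0.489%, 1.12% and 0.164% in smooth muscle cells, of which replicate 2 held 4, and 0.0250%, 0.0219% and 0.0231% in endothelial cells. Without the cells that held many ependymal or fibroblast markers, described below, the level was 1.57%, 2.07% and 1.78% in pericytes and 1.08%, 2.81% and 0.945% in smooth muscle cells, where replicate 2 was then 3 cells. So trimmed, the 22 genes set pericytes above smooth muscle cells in replicates 1 and 3 but not in replicate 2. None of the 22 was at 0 in pericytes. Of 15 smooth muscle markers outside the rule, the summed level was 0.141 to 0.240% in pericytes, and Pln and Actg2 were at 0. The 9 endothelial markers that no class rule used summed to 0.0953 to 0.129% in pericytes, against 1.54 to 1.71% in endothelial cells. These lists are set side by side in the plot of summed markers.

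**Figure D1:**
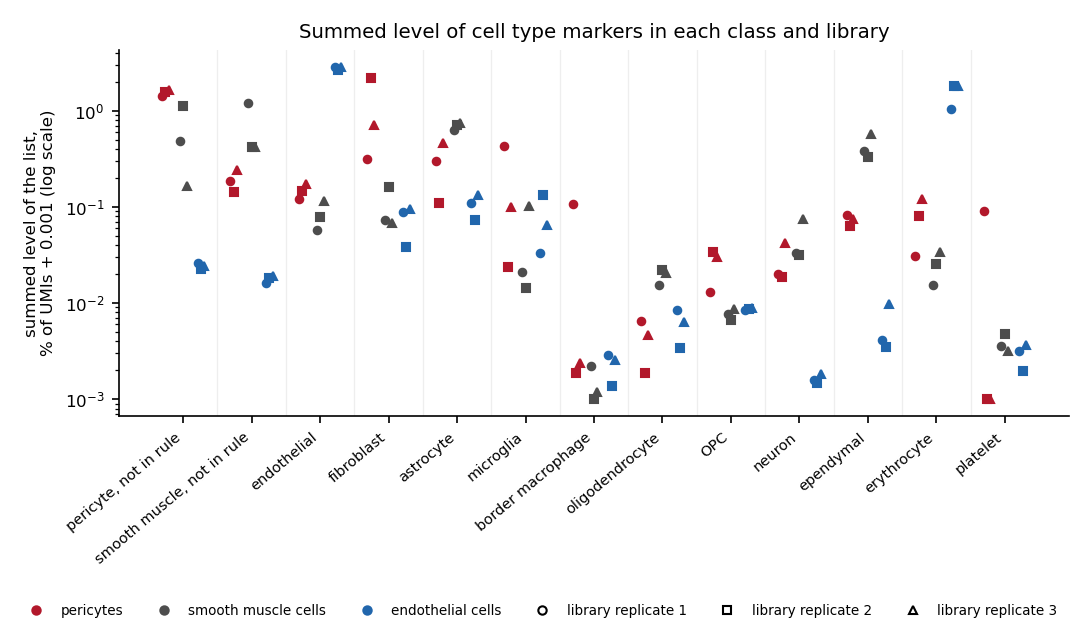
Summed level of each cell type marker list as a percentage of the UMIs of a class, plus 0.001, on a log axis, in pericytes, smooth muscle cells and endothelial cells (points, 1 per library, shaped by replicate; smooth muscle replicate 2 is 4 cells). The endothelial list holds 6 genes used to class cells, and the fibroblast, astrocyte and microglia lists 1 each. The pericyte list outside the rule reaches 1.43 to 1.66% in pericytes, and the ependymal list reaches 0.327 to 0.572% in the smooth muscle class.

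Cells with markers of another class were found in both mural classes. Fibroblast markers (Dcn, Lum, Col1a1 and 7 others, of which Dpt was at 0) summed to 0.312%, 2.19% and 0.716% in pericytes, against 0.0372 to 0.0947% in endothelial cells. Of the pericyte barcodes 6, 2 in each library, held 5 or more of the 10 fibroblast markers, and 4 others held 4 or more of 6 markers of ependymal cells, the ciliated lining of the ventricles. In the smooth muscle class 103 of 190 cells (33, 1 and 69 in replicates 1, 2 and 3) held 4 or more of the ependymal markers. Therefore comparisons with smooth muscle were made in 2 ways: on all cells, and trimmed, with both kinds of cells left out of both classes, which left 153 pericytes and 87 smooth muscle cells. The trimmed comparison was added after the data had been seen. Its changes are for the 153 pericytes, while pericyte levels are printed for all 163 unless stated. Of the 190 smooth muscle cells, 45 held 3 or more of the 6 pericyte genes of the rule. Those 6 genes summed to 0.349% and 0.403% of UMIs in trimmed smooth muscle cells of replicates 1 and 3. In trimmed pericytes of the same libraries they summed to 1.96% and 2.53%. The part of such smooth muscle cells in the trimmed comparison was not tested. Astrocyte markers summed to 0.109 to 0.458% in pericytes and microglia markers to 0.0230 to 0.430%. Border macrophage markers summed to 0.106% in pericytes of replicate 1, and to 0.000852% and 0.00136% in replicates 2 and 3. The part of these marker lists in the results was not tested.

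Genes were tested on UMIs summed per library and class, with edgeR's quasi-likelihood test and Benjamini-Hochberg adjustment over 10562 genes at 0.05. The 18 genes that any selection rule used were left out of all counts. The cells were sorted into classes by genes measured in the same cells, so that genes that move with those 18 are not independent of the sorting. The p-values say how steady a difference was over the libraries, not that the classes exist. Smooth muscle cells entered from replicates 1 and 3, since replicate 2 held 4. Over all genes tested, the pericyte libraries lay wholly above the endothelial ones for 23.6% and wholly below for 18.0%, and wholly above the smooth muscle ones for 28.0% and wholly below for 28.9%. A log2 change is pericytes over the other class, ± its standard error.

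Against endothelial cells, 1286 of 10544 genes were higher in pericytes (12.2%) and 1562 were lower (14.8%). The median over all genes tested was -0.07 on the log2 scale. Without replicate 3, 794 were higher and 1087 lower. The highest changes went to genes with almost no UMI in endothelial cells, so their ratios have wide counting intervals. Carmn, the long noncoding RNA that hosts miR-143 and miR-145, had 122, 367 and 470.1 CPM in pericytes and a single UMI in all endothelial cells, a ratio of 11795 (counting interval 2089.9 to 468465). Kcne4, a potassium channel accessory subunit, had 314, 85.2 and 118 CPM in pericytes and 3 UMIs in endothelial cells, a ratio of 2562 (counting interval 855 to 12605). All pericyte libraries were above all endothelial ones for both genes, and Kcne4 was highest in replicate 1 while Carmn was lowest there.

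Nts, the precursor of neurotensin, had 177, 25.6 and 45.2 CPM in pericytes and 1 UMI in endothelial cells (ratio 3843, counting interval 663 to 154388). Ajap1, a membrane protein of adherens junctions, had 129, 170.5 and 58.8 CPM in pericytes, also against 1 UMI in endothelial cells (ratio 4373, counting interval 758 to 175326). Nts was found in 21 of the 163 pericytes, and 1.72% of its UMIs came from the 10 cells with fibroblast or ependymal markers. Sfrp2, a secreted Wnt modulator, had 74.5, 68.2 and 22.6 CPM in pericytes and 1 UMI in endothelial cells (ratio 2120.5, counting interval 354 to 86338), and none of its pericyte UMIs came from those 10 cells.

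The imino acid transporter Slc6a20a had 483, 1117 and 823 CPM in pericytes, against 0.322, 1.39 and 0.377 CPM in endothelial cells, with a log2 change of 10.10 ± 0.47 (edgeR's quasi-likelihood test, adjusted p = 9.0e-07). The amino acid transporter family member Slc38a11 had 122, 332 and 402 CPM in pericytes and 0.276, 0 and 0.0753 CPM in endothelial cells, a log2 change of 10.14 ± 0.74 (edgeR, adjusted p = 6.4e-06). Col6a1 and Lum were also among the 10 highest changes, but all of their pericyte UMIs came from the 10 cells with fibroblast or ependymal markers.

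The 10 lowest changes were genes with 0 UMIs in all 163 pericytes, where a count of 0 allows up to 5.06 CPM over the 3 libraries. Against that floor of 3 UMIs over the group, Hmcn1, a large extracellular hemicentin, was at least 40.3-fold lower in pericytes, with 181, 241 and 229 CPM in endothelial cells. Ddc, aromatic amino acid decarboxylase, was at least 31-fold lower and Fgd5, an exchange factor for Cdc42 in endothelium, at least 28.3-fold lower. Ushbp1, Asb4, Prkch, Ccm2l, Rad54b and Unc45b were at least 25.7, 27.5, 21.4, 20.2, 18.8 and 14.4-fold lower in pericytes than in endothelial cells.

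Against smooth muscle cells, 744 of 10544 genes were higher in pericytes (7.06%) and 1299 were lower (12.3%), with a median of -0.01 over all genes. In the trimmed comparison 202 of 5460 genes were higher and 338 lower, and without replicate 3, which leaves 1 smooth muscle profile, 169 were higher and 286 lower on all cells. Of the genes called on all cells, 154 higher and 159 lower ones were called in the trimmed comparison too. Of the 10 highest changes, Chp2, a calcineurin B homologous protein that regulates sodium-proton exchange, had 102, 76.7 and 104 CPM in pericytes and no UMI in smooth muscle cells, at least 56.6-fold higher, and it also passed in the trimmed comparison (edgeR, adjusted p = 0.0077). Fxyd6, a regulator of the sodium pump, was likewise without a UMI in smooth muscle cells and had 98.1, 307 and 45.2 CPM in pericytes, at least 69.2-fold higher, but was too low to be tested after trimming. Fxyd6 UMIs were found in 16 of 163 pericytes, and 74.6% of them came from the 10 cells with fibroblast or ependymal markers. Nts had 1 UMI in smooth muscle cells, a ratio of 201 (counting interval 34.5 to 8063). Spp1, the secreted phosphoprotein osteopontin, had 1463, 4023 and 1699.6 CPM in pericytes, against 3.03 and 11.2 CPM in smooth muscle cells and 6.17, 2.54 and 43.1 CPM in endothelial cells. The trimmed log2 change of Spp1 against smooth muscle cells was 7.03 ± 0.91 (edgeR, adjusted p = 0.00078). Spp1 UMIs were found in 59 of 163 pericytes, and 62.7% of them came from the 10 cells with fibroblast or ependymal markers. Slc6a13, a GABA and taurine transporter, had 1 UMI in smooth muscle cells (ratio 325, counting interval 56.8 to 12959), and 49.2% of its pericyte UMIs came from those 10 cells. Apod, Col15a1, Lama1 and Aldh1a2 drew 97.6% or more of their pericyte UMIs from them, and Ccl7 had UMIs in 3 pericytes only.

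Pln, phospholamban, the brake of the sarcoplasmic calcium pump, was the lowest against smooth muscle. It had 0 UMIs in all pericytes, against 439 and 137 CPM in smooth muscle cells and 1035 and 899.7 CPM in trimmed smooth muscle cells, at least 49.8-fold lower in pericytes. The other 9 lowest genes, Dnah12, Pamr1, Wisp2, Krt8, Akap14, Rit2, Car9, Lrp2 and Tmem108, were at 0 UMIs in pericytes. They had between 40.9 and 163 CPM in smooth muscle cells of replicates 1 and 3, and at most 24.5 CPM in trimmed smooth muscle cells. Ependymal markers summed to 0.379% and 0.572% of UMIs in these 2 smooth muscle profiles, against 0.0622 to 0.0808% in pericytes.

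**Figure D2:**
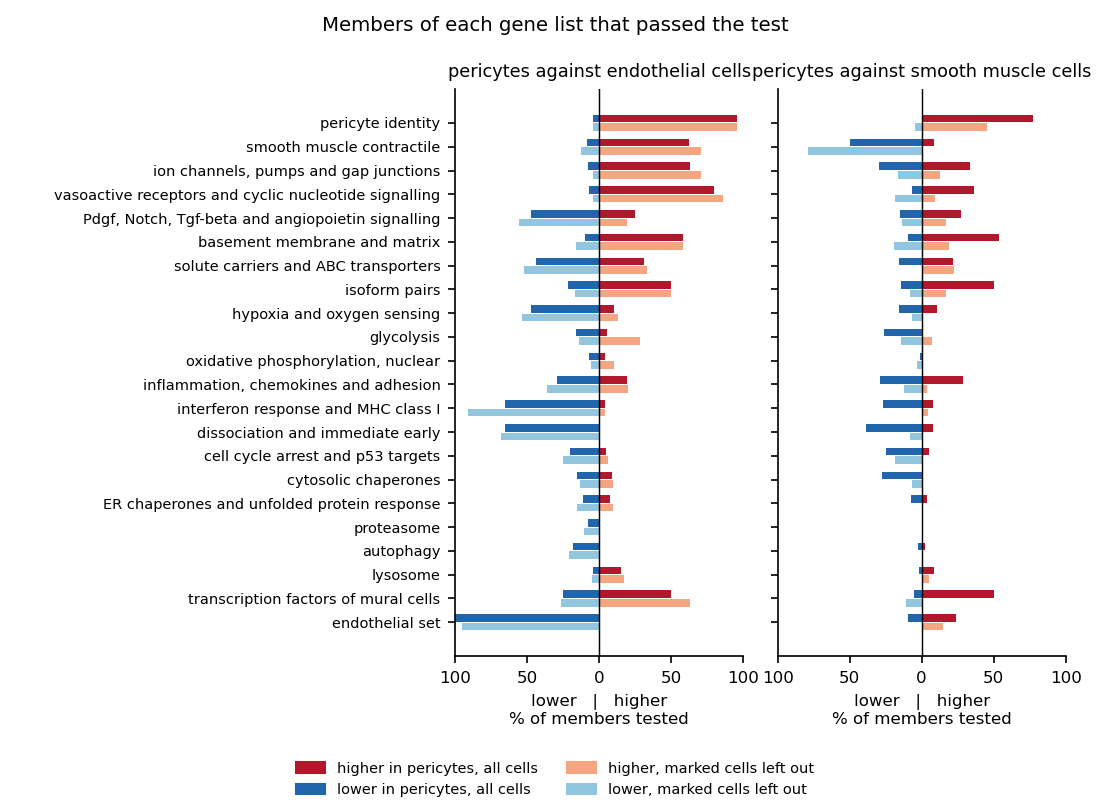
Share of the tested members of each gene list that passed at adjusted p 0.05, higher (right) or lower (left) in pericytes, against endothelial cells (left panel) and smooth muscle cells (right panel). Dark bars use all cells and pale bars leave out cells with many ependymal or fibroblast markers; 21 of 22 pericyte identity genes were higher than in endothelial cells, and contractile genes are the most often lower list against smooth muscle.

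Of 22 pericyte identity genes outside the rule, 21 were higher than in endothelial cells and 1 was lower, with a median log2 change of 8.63. Rgs5, a GTPase activator that ends signalling of G protein-coupled receptors, had 6289, 5438 and 5609.7 CPM in pericytes, against 2269.9 and 638 CPM in smooth muscle cells and 38.6, 26.6 and 26.5 CPM in endothelial cells. Its level was even over the pericyte libraries and far above that in endothelial cells (log2 change 7.27 ± 0.40, edgeR, adjusted p = 1.6e-06). Trimmed smooth muscle cells had 5101 and 4156 CPM, and against these the change of Rgs5 was 0.52 ± 0.31 (edgeR, adjusted p = 0.35), while on all cells it was 2.18 ± 0.39 (edgeR, adjusted p = 0.0045). After each cell had been thinned to 1000 UMIs, Rgs5 was found in 93, 84.2 and 94.5% of pericytes, against 2.28, 5.17 and 2.75% of endothelial cells. Unthinned, these shares were 95.8, 89.5 and 97.3% of pericytes and 8.37, 14.6 and 10.3% of endothelial cells.

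Pdgfrb, the receptor for endothelial Pdgfb, had 789, 1039.9 and 1749 CPM in pericytes, against 144 and 57.6 CPM in smooth muscle cells, 317 and 331 CPM in trimmed smooth muscle cells and 2.35, 1.62 and 2.64 CPM in endothelial cells. It was higher than in both neighbours without overlap of libraries, with a log2 change of 8.72 ± 0.50 against endothelial cells (edgeR, adjusted p = 1.8e-06) and 2.00 ± 0.33 against trimmed smooth muscle cells (edgeR, adjusted p = 0.0039). Rgs4, a relative of Rgs5, had 1295, 1074 and 1017 CPM in pericytes, 391 and 219 CPM in smooth muscle cells and 838 and 949 CPM in trimmed smooth muscle cells. Rgs4 missed the threshold after trimming (log2 change 0.44 ± 0.31, edgeR, adjusted p = 0.45), as did the proteoglycan Cspg4 (NG2), the folate carrier Slc19a1, the transcription factor Zic1 and Cox4i2.

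Of the same 22 genes, 17 were higher than in smooth muscle cells and none lower (median 2.56), and in the trimmed comparison 10 were higher and 1 lower (median 1.08). All 10 had also been called on all cells. The widest gaps of the 10 belonged to Ggt1, Pla1a and Colec12. Ggt1, a cell surface enzyme that cleaves glutathione, had 177, 239 and 267 CPM in pericytes, against 3.64 and 12.2 CPM in trimmed smooth muscle cells and 0.276, 0.463 and 0.377 CPM in endothelial cells, with a trimmed log2 change of 4.85 ± 0.53 (edgeR, adjusted p = 0.00029). The phospholipase Pla1a had 212, 256 and 244 CPM in pericytes and 18.2 and 18.4 CPM in trimmed smooth muscle cells (3.68 ± 0.45, edgeR, adjusted p = 0.00056). The scavenger receptor Colec12 had 337, 929 and 493 CPM in pericytes and 40.1 and 42.8 CPM in trimmed smooth muscle cells (2.97 ± 0.33, edgeR, adjusted p = 0.0003).

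Peptidases of the vessel wall were in the same group: Anpep (CD13) had 98.1, 188 and 145 CPM in pericytes and 10.9 and 36.7 CPM in trimmed smooth muscle cells, and Enpep, aminopeptidase A, had 184, 332 and 253 and 91.1 and 104 CPM in the same order. Their trimmed log2 changes were 2.56 ± 0.62 and 1.18 ± 0.29 (edgeR, adjusted p = 0.025 and 0.029). Art3, an ADP-ribosyltransferase family member, had 483, 519.9 and 443 CPM in pericytes, against 109 and 135 CPM in trimmed smooth muscle cells (2.01 ± 0.28, edgeR, adjusted p = 0.0012). Ifitm1, an interferon-induced transmembrane protein, had 792, 281 and 651 CPM in pericytes and 186 and 233 CPM in trimmed smooth muscle cells (1.85 ± 0.28, edgeR, adjusted p = 0.0022), lowest in pericytes of replicate 2. The gene lower than in trimmed smooth muscle cells was the adhesion molecule Mcam (CD146), with 157, 162 and 262 CPM in pericytes and 674 and 508 CPM in trimmed smooth muscle cells (-1.46 ± 0.30, edgeR, adjusted p = 0.011). The 1 identity gene lower than in endothelial cells was the forkhead factor Foxf2, with 74.5, 145 and 49.7 CPM in pericytes and 151, 143 and 139 CPM in endothelial cells (log2 change -1.16 ± 0.32, edgeR, adjusted p = 0.022).

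**Figure D3:**
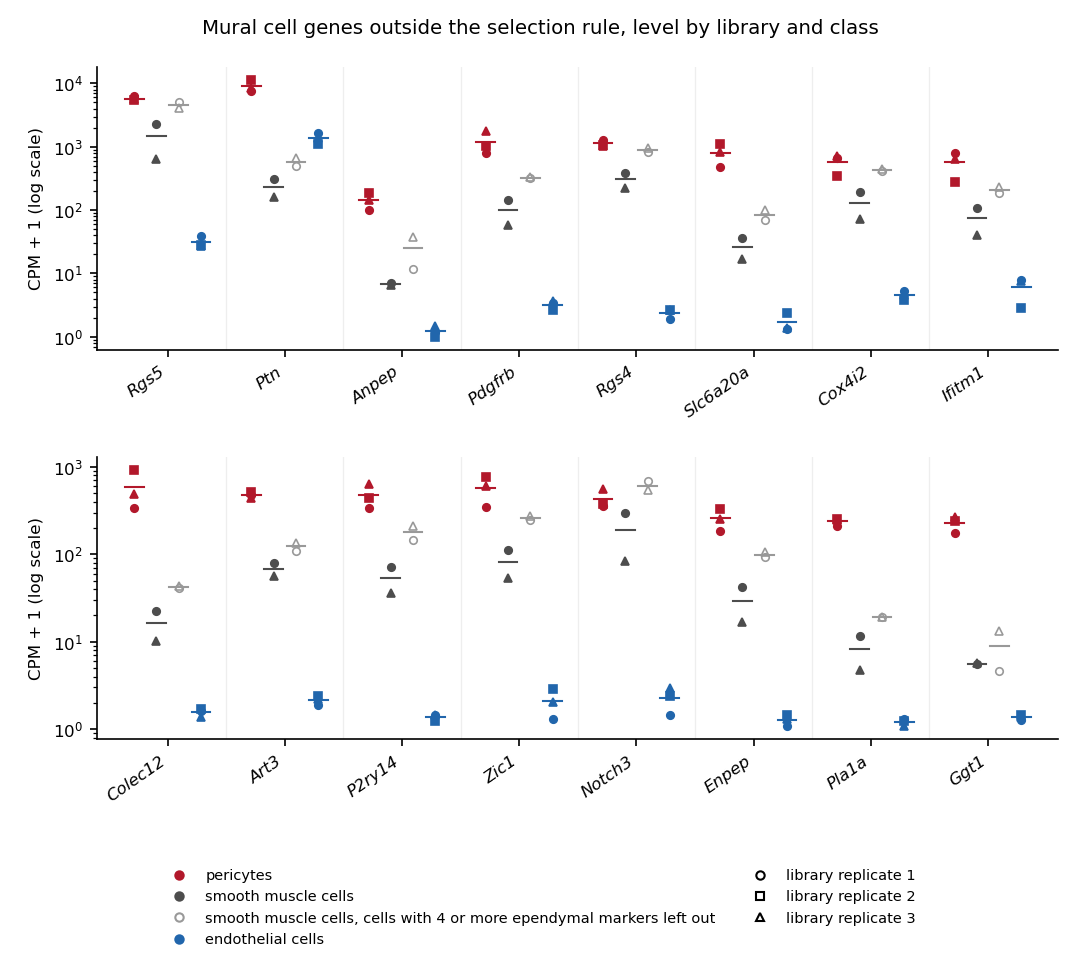
CPM plus 1 on a log axis of 16 mural cell genes outside the rule, in pericytes, smooth muscle cells of replicates 1 and 3 (filled: all cells; open: without cells that hold 4 or more ependymal markers) and endothelial cells. Points are libraries, shaped by replicate, and short lines are means; Pla1a stays at 212 to 256 CPM in pericytes and near 18 CPM in trimmed smooth muscle cells, while Rgs5 and Notch3 come close in the 2 mural classes.

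Of 24 contractile genes tested, out of 26, 15 were higher and 2 lower than in endothelial cells (median 3.21), while 2 were higher and 12 lower than in smooth muscle cells (median -1.79). In the trimmed comparison with smooth muscle none was higher and 19 were lower (median -3.35). Acta2, Myh11 and Cnn1 are used by the rule and are no part of these counts. Tagln, transgelin, an actin-bundling protein, had 11.8, 0 and 67.8 CPM in pericytes, against 4469 and 1376 CPM in smooth muscle cells, with a trimmed log2 change of -8.40 ± 0.71 (edgeR, adjusted p = 7.4e-05). Tpm2, a tropomyosin, had 122, 93.8 and 185 CPM in pericytes, against 4205 and 3311 CPM in trimmed smooth muscle cells and 1.33, 0.694 and 2.11 CPM in endothelial cells. It stood between its neighbours, with log2 changes of -4.60 ± 0.37 against trimmed smooth muscle cells and 6.26 ± 0.55 against endothelial cells (edgeR, adjusted p = 6.8e-05 and 2.1e-05).

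Not all contractile genes were scarce in pericytes. Cald1, caldesmon, had 3299, 2566 and 3969 CPM in pericytes and 3611 and 3109 CPM in trimmed smooth muscle cells, and these overlapped (log2 change 0.11 ± 0.29, edgeR, adjusted p = 0.88, against 1.37 ± 0.38 and 0.032 on all cells). Myl9, a regulatory light chain, had 1197, 750.1 and 1487 CPM in pericytes and 6066 and 5594 CPM in trimmed smooth muscle cells, against 5.29, 3.47 and 7.84 CPM in endothelial cells. Myosin light chain kinase, Mylk, had 279, 230.1 and 312 CPM in pericytes and 1946 and 1591 CPM in trimmed smooth muscle cells, and desmin, Des, had 133, 119 and 149 and 732 and 686 CPM in the same order. Myl9, Mylk and Des passed against smooth muscle only after trimming (log2 changes -2.07 ± 0.31, -2.56 ± 0.26 and -2.37 ± 0.29; edgeR, adjusted p = 0.0018, 0.00019 and 0.00059), and all 3 were higher than in endothelial cells. Ppp1r14a, an inhibitor of myosin phosphatase, had 298, 230.1 and 393 CPM in pericytes and 550.2 and 526 CPM in trimmed smooth muscle cells and passed in neither comparison with smooth muscle. The leiomodin Lmod1, filamin Flna, the nexilin gene Nexn, the tropomyosin Tpm1, Mustn1, Ppp1r12b and Sncg were lower than in smooth muscle cells both on all cells and after trimming.

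**Figure D4:**
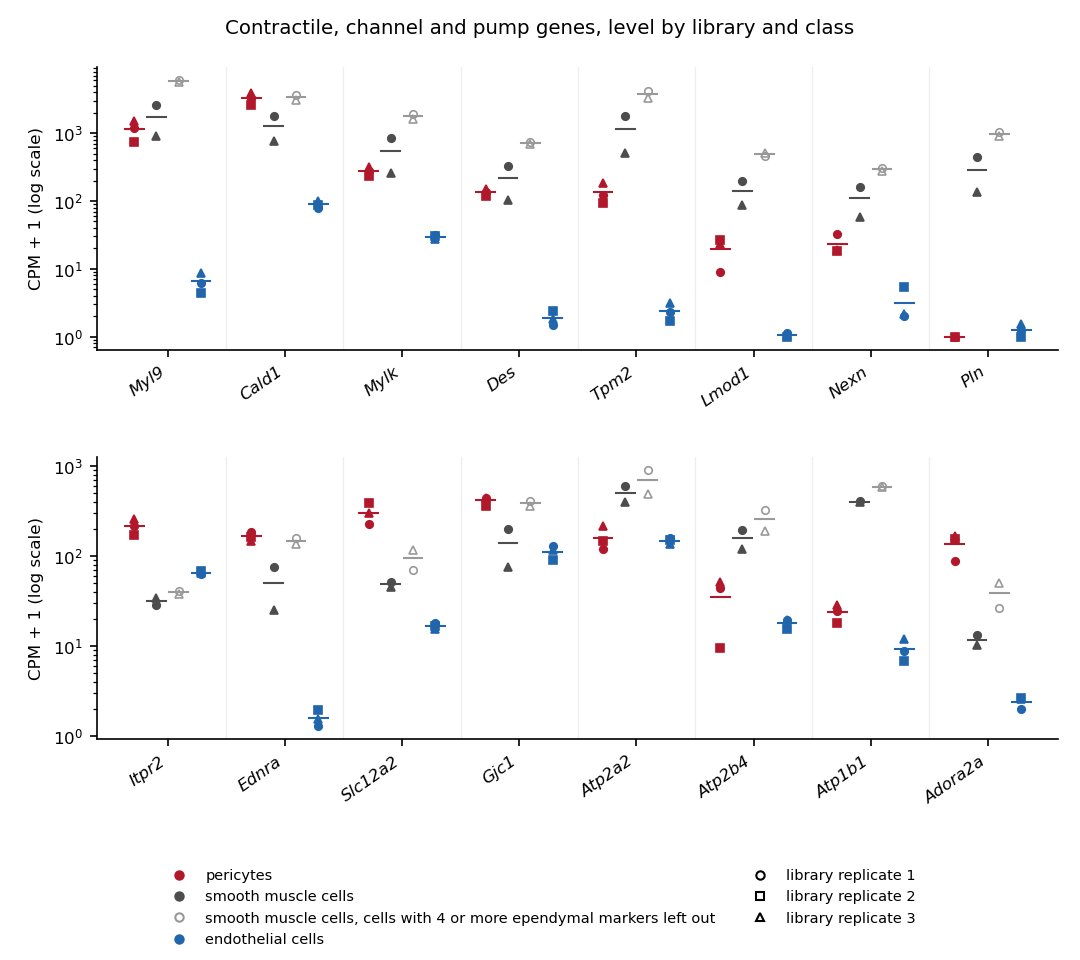
CPM plus 1 on a log axis of contractile genes (upper row) and of channel, pump and receptor genes (lower row), in pericytes, smooth muscle cells (filled: all cells; open: without cells that hold 4 or more ependymal markers; replicates 1 and 3) and endothelial cells. Points are libraries and short lines are means; Pln is at 0 in the 3 pericyte libraries and at 1035 and 899.7 CPM in trimmed smooth muscle cells, while Itpr2 and Slc12a2 are highest in pericytes.

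Ion channels, pumps and gap junction proteins set the membrane potential and the calcium signals of mural cells. Of 27 tested, 17 were higher and 2 lower than in endothelial cells (median 1.58). Against smooth muscle cells 9 were higher and 8 lower (median 0.76), and after trimming 3 and 4 of 24 (median 0.06). Itpr2 and Slc12a2 were higher in both comparisons with smooth muscle. Itpr2, a calcium release channel opened by inositol trisphosphate, had 212, 170.5 and 253 CPM in pericytes, against 40.1 and 36.7 CPM in trimmed smooth muscle cells and 61.7, 66.6 and 63.3 CPM in endothelial cells. Its log2 changes were 2.57 ± 0.30 and 1.41 ± 0.23 (edgeR, adjusted p = 0.00046 and 0.0011). Slc12a2, a sodium, potassium and chloride cotransporter, had 224, 384 and 298 CPM in pericytes and 69.2 and 116 CPM in trimmed smooth muscle cells (1.77 ± 0.35, edgeR, adjusted p = 0.0094).

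Pumps split the other way. The calcium pumps Atp2a2 and Atp2b4 and the sodium pump subunit Atp1b1 were lower than in smooth muscle cells on all cells and after trimming. Atp1b1 had 23.5, 17 and 27.1 CPM in pericytes, against 598 and 581 CPM in trimmed smooth muscle cells (-4.63 ± 0.33, edgeR, adjusted p = 4.2e-05), and Atp2b4 had 43.2, 8.52 and 49.7 CPM in pericytes, against 321 and 189.7 CPM in trimmed smooth muscle cells (-2.81 ± 0.36, edgeR, adjusted p = 0.00082). The subunit Atp1b2 had 549, 519.9 and 687 CPM in pericytes. Astrocytes also express Atp1b2, and astrocyte markers summed to 0.297%, 0.109% and 0.458% of pericyte UMIs. Connexin 45, Gjc1, had 443, 358 and 438 CPM in pericytes and 412 and 355 CPM in trimmed smooth muscle cells, which did not pass (0.33 ± 0.26, edgeR, adjusted p = 0.51), against 127, 88.1 and 117 CPM in endothelial cells (1.58 ± 0.27, edgeR, adjusted p = 0.0017). No UMI of Kcnj11 or Abcc8, the relatives of the channel genes Kcnj8 and Abcc9, was found in pericytes, which allows up to 5.06 CPM, and the large-conductance potassium channel Kcnma1 was also at 0.

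Receptors for vasoactive substances and their cyclic nucleotide signalling were the list most often higher than in endothelial cells after identity: 24 of 30 tested were higher and 2 lower (median 4.44), and 12 of the 42 members were too low to be tested. Against smooth muscle cells 11 were higher and 2 lower (median 1.20), but after trimming 2 were higher and 4 lower of 22 (median 0.37). P2ry14, a receptor for UDP-glucose, was higher in both, with 341, 443 and 642 CPM in pericytes, against 146 and 208 CPM in trimmed smooth muscle cells and 0.46, 0.231 and 0.452 CPM in endothelial cells (1.55 ± 0.29 and 9.76 ± 0.45, edgeR, adjusted p = 0.0067 and 9.0e-07). The adenosine receptor Adora2a was the other, with 86.3, 153 and 167 CPM in pericytes, against 25.5 and 49 CPM in trimmed smooth muscle cells (1.79 ± 0.44, edgeR, adjusted p = 0.028).

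The nitric oxide receptor guanylate cyclase was high in both mural classes. Its subunit Gucy1b1 had 526, 528 and 565 CPM in pericytes, 499 and 465 CPM in trimmed smooth muscle cells and 1.84, 1.39 and 1.88 CPM in endothelial cells. Gucy1b1 was above endothelial cells in every library (7.97 ± 0.41, edgeR, adjusted p = 1.1e-06) and did not pass against trimmed smooth muscle cells (0.29 ± 0.26, edgeR, adjusted p = 0.57), although it was higher on all cells (edgeR, adjusted p = 0.0066). The endothelin receptor Ednra had 184, 162 and 145 CPM in pericytes and 157 and 135 CPM in trimmed smooth muscle cells (0.22 ± 0.31, edgeR, adjusted p = 0.74). Pde3a, a phosphodiesterase, was lower in pericytes, with 15.7, 42.6 and 45.2 CPM against 503 and 318 CPM in trimmed smooth muscle cells (-3.64 ± 0.45, edgeR, adjusted p = 0.00058, and 0.049 on all cells).

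Signals that tie pericytes to the endothelium (Pdgf, Notch, Tgf-beta and angiopoietin genes, 40 tested) included 10 higher and 19 lower genes against endothelial cells (median -1.42). Against smooth muscle cells 11 were higher and 6 lower (median 0.32), and after trimming 6 and 5 of 36 (median -0.58). Among ligands, Ptn, pleiotrophin, a heparin-binding growth factor, had 7607, 11311 and 8453 CPM in pericytes, against 499 and 655 CPM in trimmed smooth muscle cells and 1633, 1086 and 1386 CPM in endothelial cells. No library of either neighbour came near the pericytes (3.71 ± 0.36 and 2.41 ± 0.31, edgeR, adjusted p = 0.00013 and 0.00024), and Ptn was found in 160 of 163 pericytes. The 10 cells with fibroblast or ependymal markers gave 26% of its UMIs, and without them pericytes had 7455, 7702 and 7708 CPM. Pdgfa, a ligand of Pdgfra, was lower, with 78.5, 51.1 and 45.2 CPM in pericytes, against 496 and 502 CPM in trimmed smooth muscle cells (-3.24 ± 0.29, edgeR, adjusted p = 7.9e-05). Tgfb1 was higher than in trimmed smooth muscle cells (122, 111 and 131 CPM in pericytes, 43.7 and 24.5 CPM in trimmed smooth muscle cells; 1.81 ± 0.37, edgeR, adjusted p = 0.012) while Tgfb2 was lower (54.9, 17 and 36.2 and 138 and 91.8 CPM in the same order; -1.55 ± 0.35, edgeR, adjusted p = 0.016).

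Among receptors, Notch3 had 361, 375 and 551 CPM in pericytes, 685 and 539 CPM in trimmed smooth muscle cells and 0.46, 1.39 and 1.96 CPM in endothelial cells, and it passed in neither comparison with smooth muscle (1.17 ± 0.60 and -0.49 ± 0.40, edgeR, adjusted p = 0.22 and 0.52). Notch1 was higher than in smooth muscle cells, with 294, 289.8 and 362 CPM in pericytes and 153 and 141 CPM in trimmed smooth muscle cells (1.19 ± 0.29, edgeR, adjusted p = 0.025). The Tgf-beta coreceptor Eng had 169, 188 and 189.9 CPM in pericytes, between 36.4 and 104 CPM in trimmed smooth muscle cells and 673, 576 and 715 CPM in endothelial cells, and passed against both. The ligand Pdgfb and the angiopoietin receptor Tek, both endothelial genes, were lower than in endothelial cells: Pdgfb had 15.7, 17 and 9.04 CPM in pericytes and 225, 320.1 and 345 CPM in endothelial cells (-4.73 ± 0.37, edgeR, adjusted p = 1.0e-05), and Tek had 2 UMIs in pericytes. The Notch target Heyl had 200.1, 136 and 163 CPM in pericytes, 113 and 110.2 CPM in trimmed smooth muscle cells and 0.23, 0 and 0.377 CPM in endothelial cells. The target Hes1, at 243, 1329.7 and 303 CPM in pericytes, was highest in replicate 2 and did not pass against endothelial cells (edgeR, adjusted p = 0.083).

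Of 41 genes of the basement membrane and matrix, 24 were higher and 4 lower than in endothelial cells (median 2.40). With the cells rich in fibroblast or ependymal markers left out, 18 of 31 were higher and 5 lower than in endothelial cells (median 1.44). Over all 5460 genes tested in that fit, 17.9% were higher and 22% lower than in endothelial cells. Of the 24 higher genes, 15 were called there too. Against smooth muscle 22 were higher and 4 lower (median 1.82), and after trimming 6 and 6 of 31 (median 0.02). Laminin chains differed: Lama2 had 106, 213 and 199 CPM in pericytes, against 18.2 and 18.4 CPM in trimmed smooth muscle cells and 1.38, 1.16 and 1.36 CPM in endothelial cells (2.89 ± 0.55 and 6.57 ± 0.37, edgeR, adjusted p = 0.0079 and 1.7e-06). Lama4 had 90.2, 153 and 176 CPM in pericytes and 21.9 and 36.7 CPM in trimmed smooth muscle cells (2.13 ± 0.43, edgeR, adjusted p = 0.011). Lama5 ran the other way, with 7.85, 0 and 13.6 CPM in pericytes, against 164 and 116 CPM in trimmed smooth muscle cells and 68.1, 74.2 and 81.1 CPM in endothelial cells (-3.94 ± 0.52 and -3.49 ± 0.54, edgeR, adjusted p = 0.00092 and 0.00085).

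Nidogen, Nid1, which links laminin to collagen IV, was higher than in both neighbours, with 282, 375 and 267 CPM in pericytes and 65.6 and 73.4 CPM in trimmed smooth muscle cells (1.69 ± 0.35, edgeR, adjusted p = 0.011). Lamc1, Ecm2 and Cthrc1 were also higher in every comparison, and Cthrc1 had 271, 546 and 303 CPM in pericytes, 29.1 and 24.5 CPM in trimmed smooth muscle cells and 47.9, 52.3 and 38 CPM in endothelial cells. Collagen IV chain Col4a1 had 326, 460.3 and 407 CPM in pericytes, 244 and 202 CPM in trimmed smooth muscle cells and 266, 257 and 201 CPM in endothelial cells, and passed in neither the endothelial (edgeR, adjusted p = 0.28) nor the trimmed smooth muscle comparison (edgeR, adjusted p = 0.35). Sparc had 1059, 972 and 1008 CPM in pericytes, 803 and 908 CPM in smooth muscle cells and 1072, 836 and 891 CPM in endothelial cells, and passed in neither comparison. Its relative Sparcl1, at 2193, 2395 and 2649 CPM in pericytes, did not pass either. Bgn and Mfge8, at 585, 1006 and 646 and 1405, 1065 and 1781 CPM in pericytes, were above endothelial cells and did not pass against trimmed smooth muscle cells, at 397 and 416 and 1508 and 1646 CPM. Without the 10 cells with fibroblast or ependymal markers, Bgn had 507, 421 and 507 CPM in pericytes. The 10 pericytes with fibroblast or ependymal markers held all UMIs of Col1a1, Col6a1 and Col15a1. They held 96.8% of the UMIs of Col3a1, 81.8% of those of Col6a2, 67.6% of those of Col1a2 and 50% of those of Col5a1.

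Of 32 transporters, 10 were higher and 14 lower than in endothelial cells (median -0.93). The drug efflux pump Abcb1a had 11.8, 51.1 and 22.6 CPM in pericytes, against 1136, 1033 and 1002 CPM in endothelial cells (-5.77 ± 0.48, edgeR, adjusted p = 1.4e-05), and the glucose transporter Slc2a1 had 126, 170.5 and 167 CPM in pericytes, against 2671, 2711 and 2537 CPM in endothelial cells (-4.46 ± 0.31, edgeR, adjusted p = 4.9e-06). The organic anion transporter Slc22a8 was an exception among barrier transporters: it had 275, 426 and 425 CPM in pericytes and 254, 222 and 281 CPM in endothelial cells, which overlapped (edgeR, adjusted p = 0.53), against 3.64 and 30.6 CPM in trimmed smooth muscle cells (4.64 ± 0.52, edgeR, adjusted p = 0.00032). It was found in 91 of the 163 pericytes.

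Relative to smooth muscle cells 7 transporters were higher and 5 lower, and after trimming 6 of 27 were higher and none lower. Slc30a10, a manganese exporter, was higher than in both neighbours, with 157, 477 and 285 CPM in pericytes, 21.9 and 24.5 CPM in trimmed smooth muscle cells and 2.07, 0.231 and 1.66 CPM in endothelial cells (3.48 ± 0.68 and 7.05 ± 0.50, edgeR, adjusted p = 0.0094 and 5.1e-06). Slc19a1, a folate carrier, had 318, 648 and 615 CPM in pericytes and 0.69, 0.925 and 1.96 CPM in endothelial cells (8.36 ± 0.50, edgeR, adjusted p = 2.4e-06), and the mitochondrial ADP and ATP carrier Slc25a4 had 514, 750.1 and 615 and 258, 219 and 268 CPM in the same order (0.99 ± 0.23, edgeR, adjusted p = 0.0098).

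Pairs of related genes were compared as the share of 1 gene in the UMIs of both, which depends less on depth. Cox4i2, the oxygen-responsive form of a subunit of cytochrome c oxidase, took 43.1, 36.4 and 50.6% of the UMIs of Cox4i2 and Cox4i1 in pericytes, against 15.9 and 7.59% in smooth muscle cells and 0.642, 0.564 and 0.513% in endothelial cells. The intervals of the pericyte libraries reached from 27.4 to 56.3% and stayed above those of all endothelial libraries. Cox4i2 had 651, 341 and 719 CPM in pericytes and 4.28, 2.78 and 3.54 CPM in endothelial cells (7.03 ± 0.37, edgeR, adjusted p = 1.2e-06), while Cox4i1 had 859, 597 and 701 and 662, 489.7 and 687 CPM in the same order and did not pass (edgeR, adjusted p = 0.78). In trimmed smooth muscle cells Cox4i2 had 408 and 447 CPM, and the change missed the threshold (0.71 ± 0.25, edgeR, adjusted p = 0.12). Ndufa4, the partner of the rule gene Ndufa4l2, was lower than in both neighbours, with 165, 111 and 163 CPM in pericytes, 441 and 337 CPM in trimmed smooth muscle cells and 394, 285 and 475 CPM in endothelial cells (-1.35 ± 0.29 and -1.72 ± 0.23, edgeR, adjusted p = 0.015 and 0.00036).

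Notch3 took 55.1, 56.4 and 60.4% of the UMIs of Notch3 and Notch1 in pericytes, against 0.189, 0.698 and 1.1% in endothelial cells. In smooth muscle cells of replicates 1 and 3 Notch3 took 74.0 and 46.1%, on both sides of the pericytes. Rgs5 took 82.9, 83.5 and 84.7% of Rgs5 and Rgs4 in pericytes, nearly the same in the 3 libraries. Its share was 85.3 and 74.4% in smooth muscle cells of replicates 1 and 3. In endothelial cells, where both genes were low, it was higher, at 97.8, 94.3 and 94.1%. Pdgfrb took 96.6, 78.2 and 95.3% of Pdgfrb and Pdgfra in pericytes, lowest in replicate 2, the library in which fibroblast markers, Pdgfra among them, were highest. In smooth muscle cells of replicates 1 and 3 Pdgfrb took 97.9 and 96.9%.

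**Figure D5:**
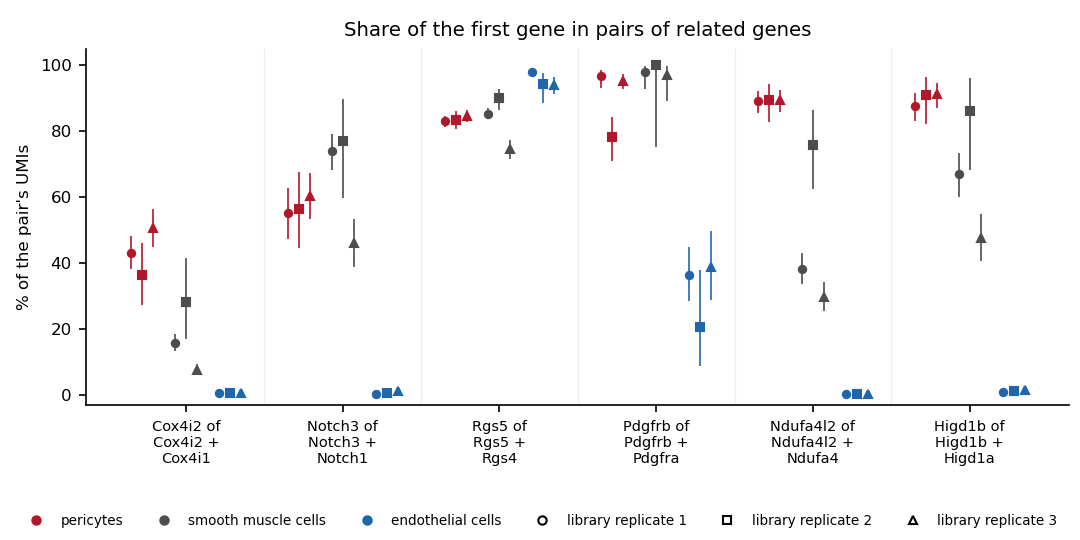
Share of the first gene in the UMIs of 6 pairs of related genes, in percent, for pericytes, smooth muscle cells (all cells of the class; replicate 2 is 4 cells) and endothelial cells; points are libraries and bars are exact 95% binomial intervals of counting error. Cox4i2 takes 36.4 to 50.6% in pericytes and under 1% in endothelial cells; Ndufa4l2 and Higd1b were used to choose the pericytes.

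Over all genes tested 12.2% were higher and 14.8% lower than in endothelial cells, and 7.06% higher and 12.3% lower than in smooth muscle cells. Of 69 nuclear genes of oxidative phosphorylation, 3 were higher and 5 lower than in endothelial cells (median 0.04). With the cells rich in fibroblast or ependymal markers left out, 7 of 69 were higher and 4 lower than in endothelial cells (median 0.11). That fit had 17.9% higher and 22% lower over all genes. On all cells 1 gene, Ndufa12, was lower than in smooth muscle cells (median -0.25). After trimming Ndufa12 did not pass, and 2 others, Ndufa13 and Sdhc, were lower (median -0.40). Cox8a, with the most UMIs of the list, had 1095, 809.7 and 1252 CPM in pericytes and 534, 417 and 522 CPM in endothelial cells (0.76 ± 0.22, edgeR, adjusted p = 0.031). None of 13 mitochondrially encoded genes passed against endothelial cells by edgeR, with 0 higher and 0 lower at an unadjusted p under 0.05, and 0 higher and 0 lower by DESeq2, and the median of the list was 0.08. Their level followed the library, with 5563, 10203 and 16463 CPM of mt-Atp6 in pericytes and 4718, 7349 and 10196 CPM in endothelial cells. Of 19 glycolysis genes 1 was higher and 3 were lower than in endothelial cells (median -0.22), and Aldoa, Gapdh, Aldoc and Pkm, the 4 with the most UMIs, did not pass. Without the cells rich in fibroblast or ependymal markers, 4 of 14 were higher and 2 lower than in endothelial cells (median 0.13). Against smooth muscle cells 0 glycolysis genes were higher and 5 lower (median -0.55), and after trimming 1 and 2 of 14 (median -0.36).

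Among 19 genes of hypoxia and oxygen sensing, 2 (Cox4i2 and Vegfa) were higher and 9 were lower than in endothelial cells, with a median of -0.88, or -0.56 with 1 gene at 0 in a class set to its bound. Epas1, HIF-2 alpha, had 392, 435 and 547 CPM in pericytes, against 1183, 1183 and 1256 CPM in endothelial cells (-1.72 ± 0.34, edgeR, adjusted p = 0.0037), and Bnip3l, a mitophagy receptor, had 141, 179 and 127 and 376, 347 and 340.3 CPM in the same order (-1.60 ± 0.23, edgeR, adjusted p = 0.00052). Vegfa had 54.9, 51.1 and 49.7 CPM in pericytes and 10.2, 8.79 and 12.7 CPM in endothelial cells (1.97 ± 0.37, edgeR, adjusted p = 0.0029), and over the 50 pericytes of replicates 1 and 3 with no smooth muscle gene and no other limited gene of the rule its change was -1.09 (edgeR, adjusted p = 0.699). With smooth muscle as the neighbour 2 were higher and 3 lower, and after trimming the 1 that passed, Ndrg1, was lower.

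Genes of the interferon response and MHC class I were lower than in endothelial cells in 17 of 26 cases and higher in 1, with a median of -1.74. B2m, the light chain of MHC class I, had 965, 418 and 443 CPM in pericytes, against 2170.5, 1584 and 1596 CPM in endothelial cells (-1.92 ± 0.39, edgeR, adjusted p = 0.0043). The heavy chain gene H2-D1 had 938, 571 and 687 and 2013, 1687 and 1933 CPM in the same order (-1.70 ± 0.29, edgeR, adjusted p = 0.0017), though class I genes are so alike that reads may be split between them. Ifitm1 was the higher one, while Ifitm3, at 1110.3, 742 and 1257 CPM, and Ifitm2, at 667, 742 and 615 CPM in pericytes, did not pass against endothelial cells. Beside smooth muscle cells 2 were higher and 7 lower, and after trimming 1 was higher and none lower (median 0.39).

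Of 31 genes of inflammation, chemokines and adhesion, 6 were higher and 9 lower than in endothelial cells (median 0.10), beside 12.2% and 14.8% over all genes tested. Of the 6, Il33, Serping1 and Spp1 drew 95.7, 77.2 and 62.7% of their pericyte UMIs from the 10 cells with fibroblast or ependymal markers. For Il34 this share was 22%, and Ccl7 had UMIs in 3 pericytes. With such cells left out, 5 of 25 were higher and 9 lower than in endothelial cells (median -0.16), and 4 of the 6 were called there too. Il34, a ligand of the microglial receptor Csf1r, had 263, 401 and 411 CPM in pericytes, against 138 and 129 CPM in trimmed smooth muscle cells and 0.276, 0 and 0.904 CPM in endothelial cells (9.20 ± 0.56, edgeR, adjusted p = 2.6e-06). Ccl2 had 1157, 818 and 212 CPM in pericytes and 9.3, 70.3 and 13.5 CPM in endothelial cells (4.66 ± 0.72, edgeR, adjusted p = 0.00077), but its UMIs came from 18 of the 163 pericytes, and 88.4% of them from 6 cells. The chemokine Cxcl12 was lower than in endothelial cells, with 341, 1833 and 434 CPM in pericytes and 2311, 2254 and 2358 CPM in endothelial cells (-2.19 ± 0.47, edgeR, adjusted p = 0.0065), and 62.3% of its pericyte UMIs came from the 10 cells with fibroblast or ependymal markers. The inhibitor Nfkbia had 447, 213 and 705 CPM in pericytes and 2452, 2436 and 2012 CPM in endothelial cells (-2.79 ± 0.39, edgeR, adjusted p = 0.00044), and the adhesion molecules Icam1 and Vcam1 were lower too. Compared with smooth muscle cells 9 were higher and 9 lower, and after trimming 1 (Spp1) and 3 of 25.

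Immediate early genes are switched on by tissue dissociation. Of 26 genes of that list 17 were lower than in endothelial cells and the others did not pass, with a median of -1.57. Jun had 3974, 2369.5 and 994 CPM in pericytes, against 7114, 7467 and 7238 CPM in endothelial cells (-1.98 ± 0.47, edgeR, adjusted p = 0.011), and Fos had 3496, 2003 and 904 and 3916, 5999 and 3642 CPM in the same order (-1.46 ± 0.46, edgeR, adjusted p = 0.04). Both were highest in pericytes of replicate 1 and lowest in replicate 3. The inducible HSP70 genes Hspa1a and Hspa1b, which are nearly alike in sequence, had 10373, 4799 and 2726 and 7179.5, 4424 and 1505 CPM in pericytes, again highest in replicate 1. In endothelial cells they had 9419, 7975 and 7087 and 6362, 6334 and 4520.4 CPM. Against smooth muscle cells 2 were higher and 10 lower, and after trimming the 2 that passed, Atf3 and Ppp1r15a, were lower.

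The chaperones differed gene by gene, and over all genes tested 12.2% were higher and 14.8% lower than in endothelial cells. Of 33 cytosolic chaperone genes 3 were higher and 5 lower than in endothelial cells (median -0.30), and 9 were lower than in smooth muscle cells, 2 of 30 after trimming. Cryab, alpha-B crystallin, stood between its neighbours, with 306, 162 and 244 CPM in pericytes, 630.3 and 1132 CPM in trimmed smooth muscle cells and 14.7, 8.1 and 30.9 CPM in endothelial cells (-1.79 ± 0.38 and 3.54 ± 0.33, edgeR, adjusted p = 0.014 and 2.9e-05). Hspb1 had 5391, 1568 and 1248 CPM in pericytes and 9934, 5882 and 6108 CPM in endothelial cells (-2.02 ± 0.33, edgeR, adjusted p = 0.0012), while Hspa2 had 404, 460.3 and 393 and 41.1, 43 and 37.4 CPM in the same order (3.03 ± 0.23, edgeR, adjusted p = 7.3e-06). Hspb8 had 1 UMI in all pericytes, against 129, 138 and 68 CPM in endothelial cells, a ratio of endothelial cells over pericytes of 65 (counting interval 11.7 to 2568).

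Counts for other systems of protein homeostasis stand beside 12.2% higher and 14.8% lower than in endothelial cells over all genes tested. Of 38 proteasome genes 3 were lower than in endothelial cells and the others did not pass (median -0.35), and against smooth muscle none passed by edgeR, with 0 higher and 3 lower at an unadjusted p under 0.05, and 0 higher and 0 lower by DESeq2. After trimming none of 37 passed by edgeR either, with 0 higher and 1 lower at an unadjusted p under 0.05. Of 38 autophagy genes 7 were lower than in endothelial cells and the others did not pass. The lower ones included the receptor Sqstm1, with 435, 247 and 140.1 CPM in pericytes and 611, 628 and 312 CPM in endothelial cells (-1.24 ± 0.40, edgeR, adjusted p = 0.043). Of 27 genes of the endoplasmic reticulum 2 were higher and 3 lower, and the collagen chaperone Serpinh1 was one of the higher, with 467, 588 and 407 CPM in pericytes and 223, 189 and 154 CPM in endothelial cells (1.03 ± 0.21, edgeR, adjusted p = 0.0046). Of 47 lysosomal genes 7 were higher and 2 lower (median 0.39), led by Cd63, with 1153, 938 and 918 CPM in pericytes, 736 and 643 CPM in trimmed smooth muscle cells and 43.2, 48.1 and 78.1 CPM in endothelial cells (3.85 ± 0.29, edgeR, adjusted p = 7.7e-06). Of the 7, Hexa, Ctsl and Ctsz each drew 54.7, 49.6 and 45.4% of their pericyte UMIs from 6 cells, against 28.5% for Cd63. Of 20 genes of cell cycle arrest and p53, 1 was higher and 4 lower than in endothelial cells. Cdkn1a, p21, had 180.5, 17 and 72.3 CPM in pericytes, against 448 and 239 CPM in trimmed smooth muscle cells and 1029, 1039 and 581 CPM in endothelial cells, and was lower than in both (-1.93 ± 0.43 and -3.60 ± 0.48, edgeR, adjusted p = 0.016 and 0.00032).

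Ribosomal protein genes were lower than in endothelial cells in 64 of 80 cases and never higher, by a median of -0.88, and none of the 80 passed against smooth muscle cells by edgeR, with 0 higher and 1 lower at an unadjusted p under 0.05, and 0 higher and 1 lower by DESeq2. After trimming none of the 80 passed by edgeR, with 0 higher and 6 lower at an unadjusted p under 0.05 (median -0.37). Pericytes were also the less deeply counted class, and the part of depth in this was not tested.

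Of 20 transcription factors known from mural cells, 10 were higher and 5 lower than in endothelial cells (median 1.21), and 10 were higher and 1 lower than in smooth muscle cells. After trimming the 2 of 19 that passed, Prrx1 and Zfhx3, were lower than in smooth muscle. Zic1 had 349, 767 and 597 CPM in pericytes, 244 and 275 CPM in trimmed smooth muscle cells and 0.322, 1.85 and 1.05 CPM in endothelial cells, and Foxs1 had 196, 205 and 163, then 222 and 239, then 0.184, 0 and 0.301 CPM in the same classes. Foxd1 and Tbx2, higher on all cells, did not pass against trimmed smooth muscle cells, at 318, 486 and 425 and 157, 264 and 212 CPM in pericytes and 233 and 220.3 and 219 and 257 CPM in trimmed smooth muscle cells. Nr2f2, a factor of veins, had 329.6, 750.1 and 502 CPM in pericytes and 51.5, 32.6 and 39 CPM in endothelial cells (3.31 ± 0.35, edgeR, adjusted p = 6.3e-05). Ebf1 and Foxc1 did not pass against endothelial cells.

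All 21 tested genes of an endothelial set outside the rule were lower than in endothelial cells, with a median of -4.997. Their range ran from Tjp1 (zonula occludens 1), at 228, 264 and 239.6 CPM in pericytes and 398, 324 and 325 CPM in endothelial cells (-0.85 ± 0.22, edgeR, adjusted p = 0.016), to a largest change of -6.53. Emcn, endomucin, had 165, 170.5 and 249 CPM in pericytes, against 7.29 and 18.4 CPM in trimmed smooth muscle cells and 486, 502 and 393 CPM in endothelial cells. It was thus lower than in endothelial cells (-1.56 ± 0.26, edgeR, adjusted p = 0.0014) and higher than in smooth muscle cells (4.13 ± 0.48, edgeR, adjusted p = 0.0004), as was Tjp1 (1.41 ± 0.31, edgeR, adjusted p = 0.017).

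Variation among pericytes was described after each cell had been thinned to 1000 UMIs, over 1035 genes with a mean of at least 0.1 UMI in every library. A ratio of variance to mean of 1 is what counting alone gives, and the median gene had 1.13, 0.968 and 1.11 in replicates 1, 2 and 3. Malat1, an abundant nuclear RNA, ranked first, with 57.6, 27.6 and 40.2. Apod, Hspa1a, Hspa1b, Jun, Hspb1, Apoe and Fos followed among genes outside the rule. Apod had 28.2, 41.4 and 32.7 and is the fibroblast marker that came to 97.6% from 10 cells, while Hspa1a had 23.6, 16 and 11.4 and Jun 12, 6.3 and 11.8, in order of the replicates. Rgs5 had 3.2, 3.54 and 3.65 and Cald1 1.76, 2.5 and 1.62, above the median gene in each library, and the rule gene Vtn had 7.34, 6.61 and 7.46.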

How the data were processed

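The 3 libraries were deposited by the authors as matrices of UMI counts per gene and barcode. Per the submitters' processing notes they were made with Cell Ranger and the mm10 genome, whose version none of the sources used here gives. The lowest barcode held 500 UMIs. From these counts, barcodes with at least 1000 UMIs and at most 20% mitochondrial UMIs were kept and classed by the genes named in the report. UMIs were summed per library and class of at least 10 cells, scaled by TMM and filtered with filterByExpr. They were tested with edgeR 4.0.16 (R 4.3.3), quasi-likelihood, with the library as a term, since pericytes and their neighbours of 1 replicate number come from 1 library, and with Benjamini-Hochberg adjustment at 0.05. DESeq2 1.42.0, RLE scaling and other limits were alternatives. Doublets were called with Scrublet in scanpy 1.11.5 and kept. The fit was tested on simulated counts. Genes with near-identical copies, such as Hspa1a and Hspa1b or the H2 and Ifitm genes, may share reads.

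Members and gene lists were chosen with earlier results of these data known. Genes were named by rule: in each comparison the 10 highest and 10 lowest changes that passed, shared their sign over all libraries and reached 50 CPM in 1 class, without gene models, haemoglobin genes or genes of the selection. Of each list the 4 members highest in pericytes were looked at, with isoform pairs and the 10 most variable genes. Some genes that this rule names are not reported here. Further list members were named after their values had been seen, and some of the 4 are covered by counts alone.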

Additional observations from a re-analysis of the deposited data

How the results depend on the processing

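The replicate number is the library, so the pairing comes from the design. With no replicate block, 1326 genes were higher and 1552 lower than in endothelial cells, and 832 higher and 1455 lower than in smooth muscle cells. Counts stayed within 1.5 times of the reported ones under RLE scaling, DESeq2, no filter on low counts, other cell, UMI and mitochondrial minimums, 4 or more pericyte markers, and without doublets. With smooth muscle cells limited to those with at most 2 pericyte markers, 933 genes were higher and 1638 lower than in smooth muscle cells. No fit combined that limit with the trimming. The rule with no smooth muscle gene and no gene of another class in pericytes kept 55 cells, a mean share of 0.537% in place of 1.74%. It gave 467 higher and 760 lower genes against endothelial cells, and 245 higher and 585 lower against smooth muscle cells. Replicate 2, with 5 such cells, gave no pericyte profile, so that pericytes entered from replicates 1 and 3, with 26 and 24 cells. Leaving out each replicate gave shares of 1.43 to 2.00%. It gave 794 to 1074 higher and 1084 to 1522 lower genes against endothelial cells, and 169 to 604 higher and 286 to 1171 lower against smooth muscle cells. The lowest counts, apart from the 1084 without replicate 2, were without replicate 3. Both without replicate 1 and without replicate 3, a lone smooth muscle profile is left and is assumed to vary like the others.

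The alternatives that left out cells with many ependymal or fibroblast markers were chosen after seeing the data. Without such smooth muscle cells alone, 186 genes were higher and 340 lower than in smooth muscle cells, and without both kinds of cells 202 were higher and 338 lower. Signs turned for few named genes. Cald1 against smooth muscle was -0.092 on the log2 scale without the smooth muscle cells rich in ependymal markers. Mcam was -1.68 there and -1.46 without both kinds of cells, against 0.03 on all cells. Vegfa against endothelial cells was -1.09 in that fit without a replicate 2 profile and with no smooth muscle or other-class gene in pericytes, against 1.97 in the reported fit, and the cause was not tested. Of 47 named genes called against smooth muscle cells, 35 were still called without replicate 3. Pericytes held fewer UMIs per cell than their neighbours, and a gene at 0 in pericytes could have had up to 5.06 CPM.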

Other observations

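Of 295 barcodes with 3 or more pericyte markers, 163 were kept as pericytes. The 67 pericytes with no endothelial, microglial, astrocyte or fibroblast gene of the rule, whatever their smooth muscle genes, had Rgs5 at 7454 CPM and Apoe at 4089 CPM, and the 96 with 1 such gene had Rgs5 at 5084 CPM and Apoe at 9107 CPM. Median UMIs were 2401 in the 67 cells and 3238 in the 96. The 32 barcodes with 2 pericyte markers had Slc1a2, an astrocyte glutamate transporter used by the rule, at 7382 CPM, against 518 CPM in the 73 pericytes with all 6 markers.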
